A study of Caenorhabditis elegans with 2 samples.

Results

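The metallothionein genes mtl-1 and mtl-2 of Caenorhabditis elegans were followed on 2 oligonucleotide arrays, and all probe sets that the array's annotation pairs with either symbol were taken. They are 2 of the 17118 genes that a probe set of the array names singly, with 4 of its 22548 probe sets for worm transcripts, 1 for mtl-1 (172744_at) and 3 for mtl-2 (188487_s_at, 194150_x_at and 194151_x_at). The control array held RNA of wild-type N2 worms grown without nanotubes, and the other held RNA of N2 worms grown with 500 μg/mL of a-SWCNT, single-walled carbon nanotubes that carry amide groups per the labels. Both samples were whole worms labelled as L4, the last larval stage, after 48 hr at 22 °C from synchronised L1 larvae fed on E. coli OP50, from a stock kept at 13 °C; what the control worms received in place of the nanotube suspension is not stated in the labels. With 1 array per group no value has a replicate or a p-value, and precision is limited by having 2 arrays in all.

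Metallothioneins are small proteins rich in cysteine, whose thiol groups bind zinc, copper and cadmium. In Caenorhabditis elegans, mtl-1 (locus K11G9.6) and mtl-2 (locus T08G5.10) lie apart on chromosome V, are induced by cadmium mainly in intestinal cells, and carry binding sites for GATA factors of the intestine. The gene mtl-1 is in addition active in cells of the pharynx without added metal and is a widely used target gene of DAF-16, the FOXO factor of insulin signalling.

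The 2 genes differed in opposite directions between the arrays once the a-SWCNT array was brought to the level of the control array. The transcript of mtl-1 was 1.67-fold lower in a-SWCNT worms, and that of mtl-2 was 1.56-fold higher as the mean of its 3 probe sets. Neither gene reached a 2-fold difference, which 4.27% of all 9382 measured genes did, 1.42% on the higher and 2.86% on the lower side. Likewise 0 of the 4 probe sets reached it, beside 5.78% of all 12021 probe sets measured on at least 1 array (1.36% higher and 4.42% lower). A probe set counted as measured from a signal of 56.7 upward, the median of all worm signals on both arrays, and lower signals were raised to that floor. All 4 metallothionein probe sets were far above the floor on both arrays, so none of their ratios was set by it.

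Control worms gave a deposited signal of 1790 for mtl-1 and a-SWCNT worms one of 427, and scaling by the factor of 2.50 between the arrays' trimmed means took the latter to 1069. After scaling, the log2 ratio (a-SWCNT over control, as in all ratios here) was -0.74. The a-SWCNT array was the lower for mtl-1 with and without scaling.

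For mtl-2 the probe set 194150_x_at was the brightest, with 4694 on the control array against 3402 as deposited, or 8523 after scaling, on the other, a log2 ratio of 0.86. The probe set 188487_s_at had 3775 in controls against 2446 as deposited, or 6127 after scaling, under a-SWCNT, a log2 ratio of 0.70. The probe set 194151_x_at had 3955 in controls against 2038 as deposited, or 5105 after scaling, under a-SWCNT, a log2 ratio of 0.37. All 3 were thus dimmer on the a-SWCNT array as deposited and brighter on it after scaling. The identifiers of these 3 end in a letter suffix (_s or _x), which the manufacturer gives to probe sets that may bind more than 1 similar transcript, and the probe set of mtl-1 has no such suffix.

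**Figure D1:**
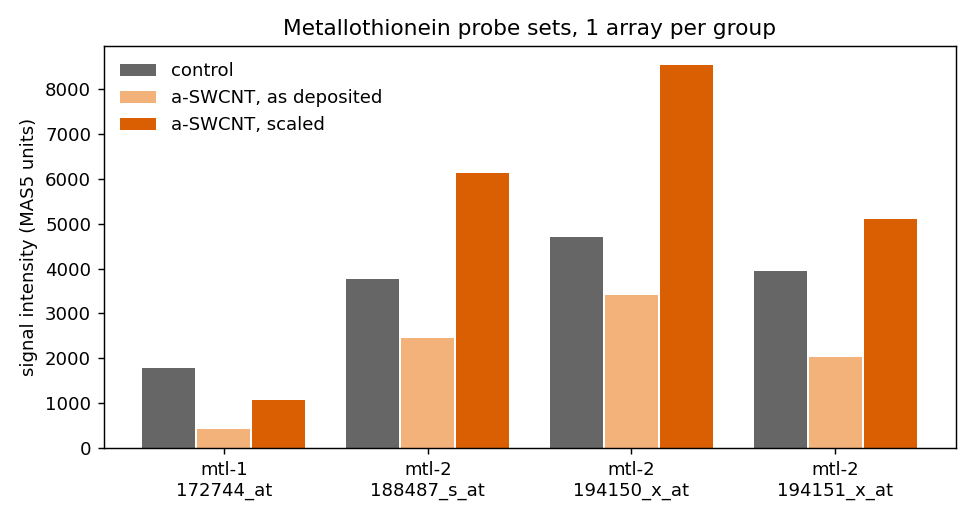
Signal intensity (linear MAS5 units) of the 4 metallothionein probe sets in control worms (grey) and in a-SWCNT worms as deposited (light orange) and after scaling (dark orange), with 1 array per group and hence no error bars. The scaled a-SWCNT bar lies below the control bar for mtl-1 (1069 against 1790) and above it for each probe set of mtl-2.

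Because the direction of mtl-2 turned with the scaling, the range of factors that leaves the opposite directions in place was read from the deposited signals. The control signal exceeded the deposited a-SWCNT signal 4.20-fold for mtl-1, and 1.38-fold, 1.54-fold and 1.94-fold for the probe sets of mtl-2. Any single factor between 1.94 and 4.20 therefore places mtl-1 lower and all 3 probe sets of mtl-2 higher on the a-SWCNT array. The factors from the trimmed mean (2.50), the medians (2.63), the 75th percentiles (2.74) and the 18 spiked hybridisation controls (2.07) all lie in that interval. The hybridisation controls themselves ranged from 1.59-fold to 3.31-fold between the arrays, so 1 factor is known only roughly from them.

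Over the 6 scalings that bring the arrays to a common level, the log2 ratio of mtl-1 ran from -1.02 with equal hybridisation controls to -0.62 with equal 75th percentiles, and the former is past 2-fold. The probe set 194150_x_at of mtl-2 ran from 0.59 to 0.99, 188487_s_at from 0.42 to 0.83, and 194151_x_at from 0.09 to 0.50. The last was close to no difference with equal hybridisation controls. In that scaling the median of all measured genes was itself -0.28, and mtl-1 lay 0.74 below it and mtl-2 0.64 above it on the log2 scale.

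**Figure D2:**
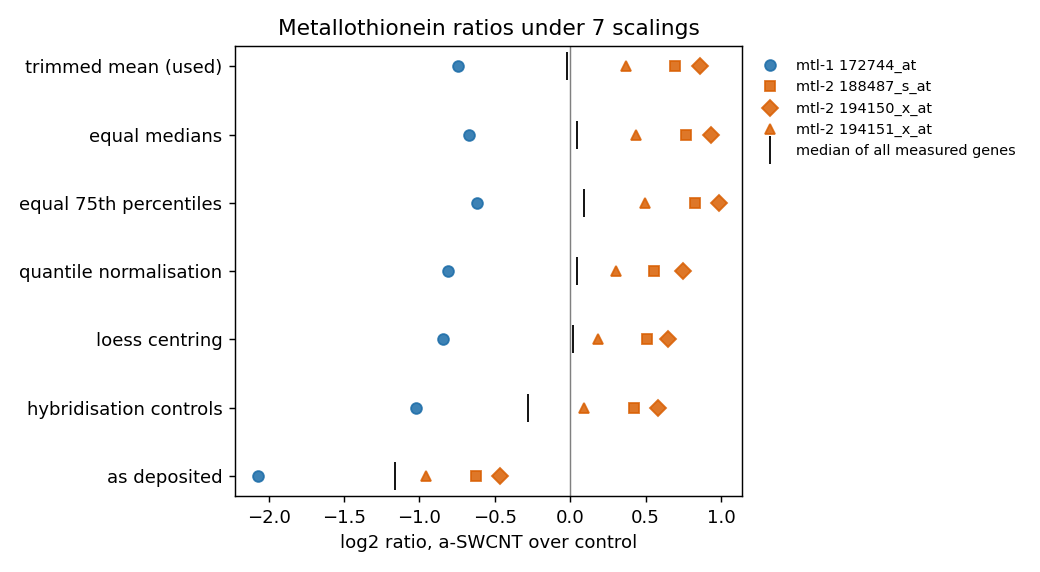
Log2 ratio, a-SWCNT to control (horizontal axis), of the probe set of mtl-1 (blue) and the 3 probe sets of mtl-2 (orange) under 7 scalings (rows), with the median of all measured genes as a black tick. mtl-1 lies below that median and each probe set of mtl-2 above it in every row, and in the values as deposited all 4 lie below 0.

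The position of each probe set among the worm probe sets of its own array gave the same directions without a scaling factor. For mtl-1 it went from percentile 96.2 in controls to 93.5 under a-SWCNT, or from rank 856 to rank 1471 counted from the brightest. For mtl-2 the probe set 194150_x_at went from rank 351 to rank 193, 188487_s_at from rank 420 to rank 283, and 194151_x_at from rank 398 to rank 332. Every probe set of mtl-2 moved toward the top of its array, the last of them the least. Quantile normalisation, among the scalings above, uses the same ranks, so they are not a separate check.

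The difference between the 2 genes does not depend on any single scaling factor, since a factor cancels when the log2 ratios are subtracted. The log2 ratio of mtl-1 was 1.39 lower than that of mtl-2, given as mtl-1 minus mtl-2 of -1.39, so that the abundance of mtl-1 relative to mtl-2 was 2.61-fold lower on the a-SWCNT array. Against the single probe sets of mtl-2 the value was -1.60 (3.04-fold), -1.44 (2.72-fold) and -1.11 (2.16-fold). Under quantile normalisation and loess centring, which are not single factors, and in the other planned settings that gave a value, it stayed between -1.60 and -1.29.

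Beside the spread of the hybridisation controls, the disagreement between probe sets of 1 gene gives a gauge of error within these arrays. The log2 ratios of the 3 mtl-2 probe sets had an SD of 0.25 and spanned 0.49, and 70.2% of 141 other genes with 3 probe sets measured on both arrays spanned as much or more. These probe sets are assigned to 1 gene and were read from the same RNA, so they are not replicates of the exposure. Among 1370 other genes with 2 measured probe sets, the probe sets differed by a median of 0.43, and in 67 of them (4.89%) they differed by 1.39 or more. A difference as large as that between mtl-1 and mtl-2 thus occurred between probe sets of the same gene, in 4.89% of these genes. That share sets 2 single probe sets of 1 gene beside a difference between 2 genes. It holds no variation between worms or repeated arrays, so it cannot say whether the difference exceeds error. The value of mtl-1 rests on 1 probe set, and its own disagreement cannot be measured.

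Taken singly, neither gene stood at the edge of the arrays. Of the 9382 genes measured, 666 (7.1%) had a log2 ratio as low as that of mtl-1 or lower, and 595 (6.34%) had one as high as that of mtl-2 or higher. Among the 10527 probe sets measured on both arrays, 2.62% were as high as 194150_x_at or higher, 5.19% as high as 188487_s_at and 19.1% as high as 194151_x_at. For the mtl-1 probe set, 9.39% were as low or lower.

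**Figure D3:**
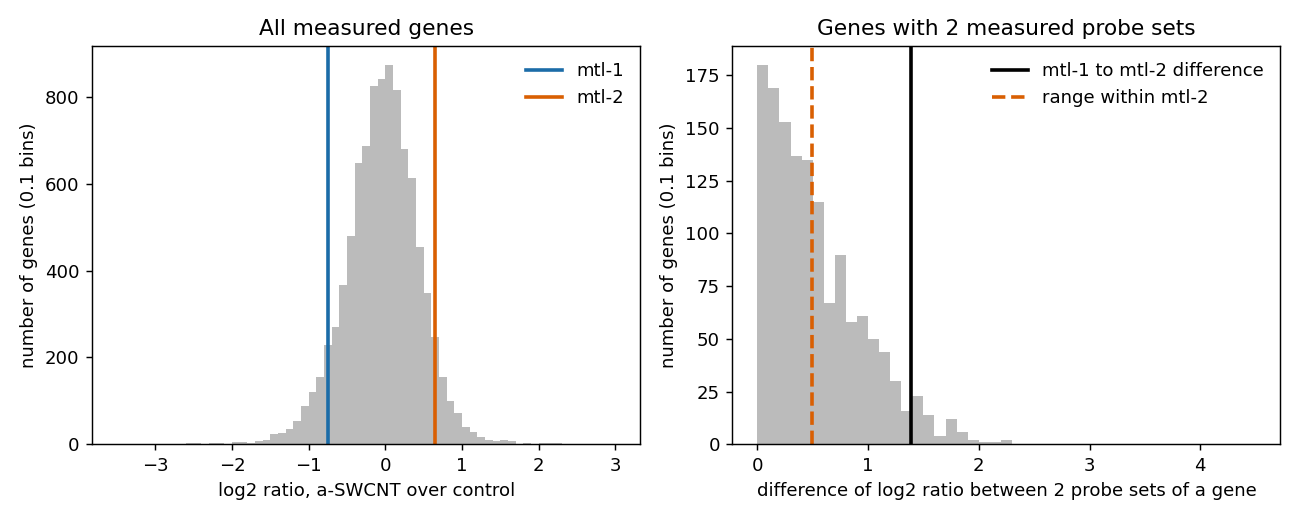
Left, number of genes (vertical axis, bins of 0.1) by log2 ratio, a-SWCNT to control, for all 9382 measured genes, with mtl-1 (blue, -0.74) and mtl-2 (orange, 0.64) marked. Right, number of genes by the difference in log2 ratio between their 2 measured probe sets, with the mtl-1 to mtl-2 difference (black, 1.39) and the range within mtl-2 (dashed, 0.49) marked; the black line lies in the sparse upper end.

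Other genes of zinc and cadmium handling did not share 1 direction. Of 33 listed genes 30 had a probe set of their own, 25 were measured, 13 were above and 12 below 0. At 2-fold, 0 were higher and 0 lower. Their median log2 ratio was 0.12, beside -0.02 for all genes measured. With equal hybridisation controls, where the median of all genes was -0.28, theirs was -0.16, with 7 above and 18 below 0. The highest was pcs-1, the phytochelatin synthase that makes metal-binding peptides from glutathione, at 158 in controls and 272 under a-SWCNT (log2 ratio 0.79; signals follow in this order below). Next were cdr-2, a member of the family of cadmium-responsive genes (724 and 1115, 0.62), and the ZIP-type zinc transporter gene zipt-2.2 (177 and 266, 0.59).

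On the low side of that list were zipt-9, another ZIP transporter gene, at -0.71 from probe sets at -1.32 and -0.09, then cdr-4 (556 and 371, -0.58) and zipt-13 (757 and 519, -0.54). The cadmium-inducible gene cdr-1, named after its value was seen, had 113 and 123, a log2 ratio of 0.13 that changed sign between scalings. The metal-responsive gene numr-2 was below the floor on both arrays, with 10.7 and 5.35. The transporter gene cdf-2, whose product moves zinc into intestinal storage granules and which was also named after its value was seen, had 272 and 313 (0.20, with a sign that changed between scalings).

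Genes of copper, manganese and iron handling were likewise mixed, with 3 of 8 measured genes above 0, 5 below and 0 at 2-fold. Their median log2 ratio was -0.07 (0.05 with equal 75th percentiles, beside 0.09 for all genes, and -0.31 with equal hybridisation controls, beside -0.28). The highest of those measured on both arrays were asna-1, an ATPase linked to tolerance of arsenite (538 and 779, 0.54), and the ferritin gene ftn-1 (1167 and 1370, 0.23). The lowest were the divalent metal transporter gene smf-1 (230 and 186, -0.30), the copper chaperone gene cuc-1 (487 and 426, -0.19) and the second ferritin gene ftn-2, at -0.02 from probe sets at -0.20 and 0.15. The signs of both ferritin genes changed between scalings. The copper-transporting ATPase gene cua-1, named after its value was seen, was below the floor in control worms and at least 1.86-fold higher in a-SWCNT worms (54.0 and 105).

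Cysteine supplies the metal-binding groups of metallothioneins, and genes of its metabolism and of glutathione had 3 of 10 measured genes above 0 and 7 below, 0 at 2-fold. Their median log2 ratio was -0.10. With equal 75th percentiles it was 0.02, beside 0.09 for all genes, and 6 were above 0. With equal hybridisation controls it was -0.38, beside -0.28 for all genes. The cystathionine beta-synthase gene cbs-1 was highest (146 and 258, 0.82), followed by the glutathione reductase gene gsr-1 (2545 and 3287, 0.37) and the cystathionine gamma-lyase gene cth-1 (337 and 425, 0.34). The cysteine dioxygenase gene cdo-1, which opens the breakdown of cysteine, was lowest (1194 and 819, -0.54), then cysl-2 (1058 and 789, -0.42) and cysl-1 (-0.14, from -0.09 and -0.20). The 2 probe sets of gcs-1, which encodes the first enzyme of glutathione synthesis and was named after its values were seen, disagreed, with 302 and 566 in 1 (0.91) and 112 and 50.9 in the other, where a-SWCNT worms were below the floor (at least 1.97-fold lower).

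Regulators linked to metallothioneins, to insulin signalling or to the stress kinases were more often below than above 0, in 14 against 7 of 21 measured genes, beside 52.1% of all genes below 0, with a median log2 ratio of -0.24. With equal 75th percentiles 12 were below and 9 above, at a median of -0.11, beside 0.09 for all genes. With equal hybridisation controls 16 were below and 5 above, at a median of -0.51, beside -0.28 for all genes. The GATA factor genes elt-2 and elt-7, which act in the intestine, had 131 and 175 (0.42, in the 1 measured probe set of elt-2) and 278 and 314 (0.18, with a sign that changed between scalings). The zinc-sensing receptor gene hizr-1 lay next to the floor with 57.3 and 55.5. The gene sgk-1, for a kinase downstream of insulin and TORC2 signals, was highest (298 and 502, 0.75), and pqm-1, whose protein is in the nucleus when DAF-16 is not, had 1147 and 1458 (0.35).

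On the low side were akt-1, a kinase that holds DAF-16 in the cytoplasm, at -0.78 from probe sets at -1.01 and -0.54, then skn-1, the factor of the oxidative and xenobiotic response, at -0.76 from -0.96, -0.26 and -1.07, and the stress kinase gene mek-1 (205 and 126, -0.71). The only gene of the list at 2-fold was hlh-30, the TFEB homologue that drives lysosome and autophagy genes, at -1.49 from probe sets at -1.78 and -1.21, the latter a bound. Another probe set of hlh-30, below the floor on both arrays with 32.8 and 42.1, is not in that mean. The mean of hlh-30 no longer reached 2-fold without a floor, or with the floor at the 25th or the 75th percentile. Transcript levels of kinases and transcription factors do not measure their activity.

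**Figure D4:**
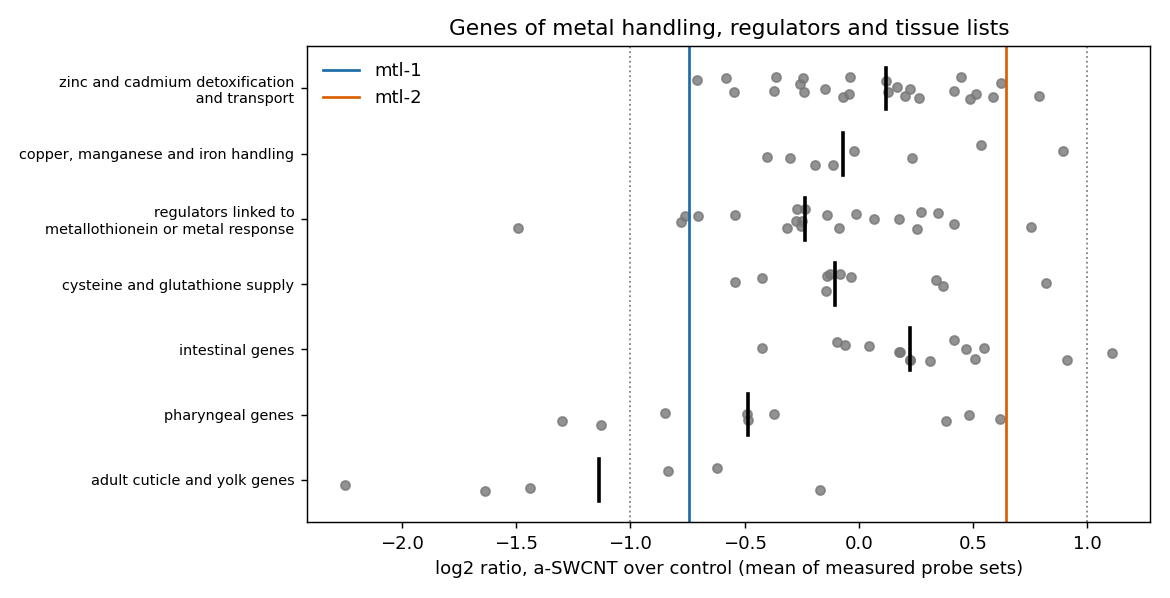
Log2 ratio, a-SWCNT to control, of each measured gene (points) of 4 lists of metal handling and its regulators and of 3 lists of tissue and stage, with list medians as black bars, 2-fold as dotted lines and the values of mtl-1 (blue line) and mtl-2 (orange line). The metal lists lie around 0 on both sides. The intestinal median is 0.23 (-0.05 with equal hybridisation controls, where the median of all measured genes is -0.28). All 6 adult cuticle and yolk genes lie below 0.

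Markers of the tissues in which metallothioneins are made, and of stage, were set beside these values. In whole worms fewer cells of a type and less RNA per cell cannot be told apart. Of 15 intestinal genes, among them elt-2, elt-7 and pgp-3 of the lists above, 12 were above 0 and 3 below at a median log2 ratio of 0.23. Of all measured genes 52.1% were below 0, at a median of -0.02. With equal hybridisation controls, where the median of all genes was -0.28, 7 of the intestinal genes were above and 8 below 0, at a median of -0.05. For these genes the summed signal of their 20 probe sets was 39557 in controls and 51802 under a-SWCNT, or 42811 with equal hybridisation controls. Without asp-1, a choice made after the data were seen, the sum was 24912 in controls and 30403 under a-SWCNT, or 25126 with equal hybridisation controls. Of these genes 0 were below the floor in all their probe sets. The vacuolar ATPase gene vha-6 was at least 2-fold higher (1160 and 2500, 1.11), but short of 2-fold with equal hybridisation controls (0.83) and under loess centring. The peptide transporter gene pept-1 had 373 and 701 (0.91), and the protease gene asp-1 had 14644 and 21399 (0.55, with a sign that changed between scalings). The esterase gene ges-1 (546 and 523, -0.06) and the intermediate filament gene ifb-2 (3069 and 2872, -0.10), both of signs that changed between scalings, and nhx-2 (177 and 132, -0.43) were lowest. With scaling by trimmed means, mtl-2 was higher, as were most intestinal markers, and its log2 ratio exceeded all but vha-6 and pept-1 on that list. The ratio of mtl-1 lay below all 15. With equal hybridisation controls mtl-2 was still above 0, at 0.37, and 8 of the 15 markers were below 0. A single factor moves mtl-2 and the marker median alike, so only the place of 0 differed.

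Of 9 measured pharyngeal genes 6 were below 0, as was mtl-1, 2 of them at least 2-fold lower, at a median log2 ratio of -0.49. Of all measured genes 52.1% were below 0 and 2.86% at least 2-fold lower. The summed signal of the 14 pharyngeal probe sets, in which the bright probe sets count most, was 3862 and 3759 (3107 with equal hybridisation controls). The transcription factor gene ceh-22 was below the floor in both its probe sets on both arrays. The factor gene pha-4, named after its values were seen, was at -0.49 from probe sets at -0.09 and -0.89. The myosin gene myo-2 (241 and 98, -1.30), the secreted-protein gene abu-10 (375 and 172, -1.13; just short of 2-fold with equal 75th percentiles) and phat-1 (116 and 64.2, -0.85) were lowest, and the gland gene phat-5 (267 and 410, 0.62) and the troponin genes tnc-2 (762 and 1064, 0.48) and tni-4 (807 and 1051, 0.38) highest. The 6 adult cuticle and yolk genes were all below 0, 3 of them at least 2-fold lower, at a median of -1.14, and their summed signal was 7227 and 3479. The part of tissue make-up and of stage in the values of mtl-1 and mtl-2 was not tested.

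Of the list genes measured on both arrays, 80 were compared with each metallothionein gene by the size of the difference between log2 ratios, over these 2 arrays. Nearest to mtl-1 were skn-1, akt-1 and zipt-9, and nearest to mtl-2 were cdr-2, the pharyngeal gland gene phat-5 and zipt-2.2, all within 0.06. With 2 arrays, likeness means only a similar ratio.

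Of the 8 neighbouring genes with a probe set of their own, 4 were below the floor on both arrays. Beside mtl-1, K11G9.5 (141 and 94.1, -0.58, in its measured probe set) stood on the near side, W02F12.2 (204 and 151, -0.44) and era-1 (179 and 138, -0.37) followed on the other, and egl-46 was below the floor. Beside mtl-2, srh-308, end-3 and T08G5.1 were below the floor on both arrays, and T08G5.3 had 109 and 125 (0.19, with a sign that changed between scalings). The few measured neighbours of mtl-1 were below 0, by smaller amounts than mtl-1, where 52.1% of all measured genes also lay. For mtl-2 only 1 of its 4 neighbours here was measured.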

How the data were processed

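Biotin-labelled cRNA from 6 ug of total RNA was hybridised to Affymetrix arrays, per the labels' protocols. The authors deposited linear signal intensities, 1 for each probe set, with MAS5 named in the submitters' processing notes; its version, scaling target and detection calls are not given in the sources used here. The trimmed mean (2% removed at each end) of worm probe sets was 208 on the control and 83.2 on the a-SWCNT array, so the latter was multiplied by 2.50; a shift shared by most transcripts cannot be seen after that. The floor was the median signal over both arrays (50.4% and 49.6% of probe sets reached it). The log2 ratio of a gene is the mean over its probe sets measured on at least 1 array. No test was possible with 1 array per group. The ratio of 3' to 5' signal was 14.3 and 23.1 for ubiquitin, 1.13 and 0.90 for actin, 0.78 and 0.69 for GAPDH and 2.41 and 1.96 for catalase on the control and a-SWCNT arrays; its part in the results was not tested.

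Probe sets were named from the platform's annotation, updated by identifier through a gene table of assembly WBcel235, which also gave the order of genes and no coordinates here. The members and the 7 gene lists were chosen with earlier results of these data known. Named were both members, up to 3 highest and 3 lowest genes measured on both arrays of each list (stage list excepted), genes at 2-fold on the metal, regulator and tissue lists, 2 neighbours on each side and the 3 list genes nearest in ratio. The genes elt-7, hizr-1, numr-2 and ceh-22 were named outside this rule, and others are said to be named after their values were seen. Alternatives covered scaling, floor, threshold and the choice of probe set. Python 3.11.15, numpy 2.4.6, pandas 2.3.3 and statsmodels 0.14.6 (loess, span 0.3) were used, and the scaling was tested on simulated data.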

Additional observations from a re-analysis of the deposited data

How the results depend on the processing

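In the values as deposited the log2 ratio of mtl-1 was -2.07 and that of mtl-2 -0.68 (-0.63, -0.46 and -0.96 in 188487_s_at, 194150_x_at and 194151_x_at), so the direction of mtl-2 was reversed; there the median of all genes was -1.16, and that of the zinc and cadmium list was also reversed, at -1.12. The unequal overall level of the arrays is what that setting leaves in place. In all other settings that gave a value, mtl-1 stayed between -1.02 and -0.62 and mtl-2 between 0.37 and 0.86, by less than the SD of 0.48 between probe sets of a gene from the values reported. Without probe sets that carry a letter suffix mtl-2 has no probe set and no value. On the 4 metal and regulator lists together, 0 genes were at least 2-fold higher and 1 lower; the counts were 6 higher and 5 lower at 1.5-fold, 0 lower at 3-fold, and 45 lower as deposited. The count lower was 3 with the brightest probe set, 3 with equal hybridisation controls, 2 without suffixed probe sets and 0 with the floor at the 25th or 75th percentile, and the count higher was 1 without a floor; the added genes were akt-1 with zipt-9 (brightest probe set) or with skn-1 (hybridisation controls). Over all genes, 133 were at least 2-fold higher and 268 lower (66.8% lower), against 181 and 206 (53.2%) for medians set equal, 217 and 167 (43.5%) for 75th percentiles set equal, 180 and 192 (51.6%) for quantile normalisation, 170 and 210 (55.3%) for loess centring, 52 and 679 (92.9%) for hybridisation controls set equal, 4 and 6439 (99.9%) without scaling, 562 and 553 with the floor at the 25th percentile, 69 and 105 at the 75th, 2145 and 1920 without a floor, 755 and 1087 at 1.5-fold and 21 and 37 at 3-fold. No paired analysis was possible because each group has 1 array.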
